A study of Mus musculus with 8 samples.

Results

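The genes described here are 8 markers used for the stem cells of the corneal limbus that are not keratins, namely Abcb5, Abcg2, Gpha2, Trp63, Lrig1, Bmi1, Cebpd and Itga9. They were chosen by name, and their rows were taken from a table of 54532 Ensembl genes. RNA of naive mouse corneas was sequenced in 4 libraries of the inbred strain BALB/cN and 4 of the inbred strain C57BL/6N. The study's methods state that the animals sequenced were male. Neither strain carried a transgene or received an agent. The methods give an age of 8 to 10 weeks for mice of these strains used in corneal phenotyping and do not restate it for the animals sequenced. The study compared the strains to find genes behind their different limbal lymphatic vessels. Nothing in the labels says that the 4 libraries of a strain came from separate animals, so p-values measure only the spread between these libraries.

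The limbus is the rim of the cornea where it meets the conjunctiva and sclera. Stem cells in its basal epithelium divide rarely, and their daughters move towards the centre of the cornea, where they multiply and then differentiate into the layers that carry the keratin pair of the corneal epithelium. No single transcript marks these cells alone, and most genes used as markers are also expressed by other basal epithelial cells or by cells outside the epithelium. In RNA of a whole cornea a small population of cells adds little to a transcript that is widespread, and fewer cells of a type cannot be told apart from less RNA per cell.

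Abcb5 and Abcg2 encode membrane transporters of the ATP-binding cassette class, of which Abcg2 exports dyes and drugs and was used to find stem cells as a side population in cell sorting. Gpha2 encodes the alpha subunit of thyrostimulin, a glycoprotein hormone that acts on the thyrotropin receptor. Trp63 encodes p63, a transcription factor of the p53 family that basal cells of stratified epithelia need. Lrig1 is a transmembrane inhibitor of ErbB receptors, Bmi1 a subunit of Polycomb repressive complex 1, and Cebpd a transcription factor of the C/EBP family that slows the cell cycle. Itga9 encodes the alpha chain of an integrin that pairs with beta1 and binds tenascin C and other matrix proteins.

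Values are given on 2 scales. The deposited rlog values are log2 values, normalized for library size and shrunken towards the mean of the gene, the more so where few reads were counted. Reads per cornea were recovered by inverting that transformation, and normalized reads are these reads divided by the size factor of the library. The recovered reads summed to between 29.7 and 41.2 M per cornea. They were near whole numbers for most genes with fewer than 1000 normalized reads. The reads of Trp63, Lrig1 and every other gene above that level, such as Krt12 and Muc4, are therefore approximate. A difference is BALB/cN minus C57BL/6N, and a gene was called where the adjusted p of limma with Benjamini-Hochberg adjustment over all 25402 genes tested was at most 0.01. By this rule 1458 genes (5.74%) were called, 718 (2.83%) with higher and 740 (2.91%) with lower values in BALB/cN. When each cornea was set relative to its differentiated epithelium, all genes shifted up by a median of 0.11, and 903 genes were called higher and 453 lower.

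The corneas were not alike in the tissue they held. Krt12, the keratin of differentiated corneal epithelium, was abundant in every cornea, as the tissue label requires, with 860417 ± 87887 normalized reads (SD, n = 4) in C57BL/6N and 857845 ± 77176 (SD, n = 4) in BALB/cN. The list of 10 stromal keratocyte genes had mean rlog values of 13.31 to 13.91 in BALB/cN replicates 1, 3 and 4 and of 13.93 and 13.96 in C57BL/6N replicates 1 and 2. In the other corneas it was lower, at 11.86 in BALB/cN replicate 2 and at 11.31 and 11.28 in C57BL/6N replicates 3 and 4. These are called stroma-rich and stroma-poor below. The list of 7 pigment cell genes was highest in BALB/cN replicates 1 and 4, at 9.21 and 10.06, against 5.64 to 7.62 in the other corneas, and the list of 8 lens genes was highest in the same pair, at 7.56 and 6.63 against 4.55 to 5.30. The summed normalized reads of the 8 conjunctival genes ranged from 524257 to 773458 in BALB/cN and from 887628 to 1120575 in C57BL/6N. Nearly all of them came from the mucin Muc4, with 521822 to 770989 reads in BALB/cN and 868579 to 1099305 in C57BL/6N. The sum thus describes a single gene and is not a measure of conjunctival tissue. Other genes of the list differed in both directions, as given below.

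Of the 8 markers, 7 had reads and all 7 entered the test, since each had a mean rlog value above the minimum of 0. None of the 7 was called between the strains by limma, in either direction, against 5.74% of all genes tested. Without adjustment, 2 of the 7 (Abcg2 and Lrig1) had p under 0.05 in limma, against 6009 (23.7%) of all genes tested. Limma voom on the recovered reads also called 0 and gave 2 before adjustment, against 6042 (23.8%) of all genes. The median difference of the 7 was 0.01 and that of all genes tested was 0.01. In size, the differences had a median of 0.29 over the 7 and of 0.09 over all genes tested. All genes tested include genes with few reads, whose rlog values are shrunken more, so these medians compare unlike read levels.

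**Figure D1:**
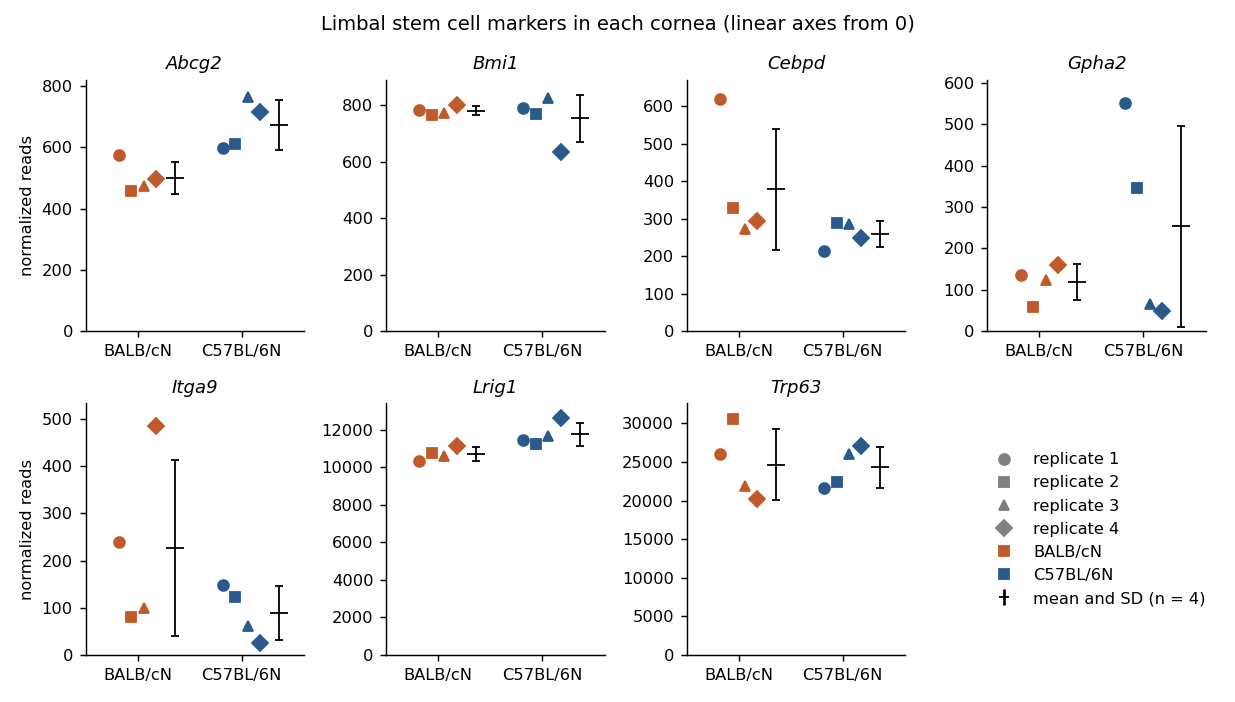
Normalized reads (linear axes from 0) of the 7 markers with reads, 1 point per cornea, with the mean and SD of each strain (n = 4) beside the points. Abcg2 and Lrig1 have all 4 BALB/cN corneas below all 4 C57BL/6N corneas, while Gpha2 spans 47.6 to 551.2 reads within C57BL/6N and Itga9 81.3 to 484.4 within BALB/cN.

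Abcb5 (ENSMUSG00000072791; GRCm38 chr12:118867824-118966421, minus strand, protein coding) was listed at 0 in all 8 corneas, so no read was counted on its exons. A count of 0 allows up to 3 reads, which is between 0.0729 and 0.101 reads per M reads across the corneas, and this limit covers counting error only. The value limits the RNA of the whole cornea and says nothing of single cells. Among the 12 ATP-binding cassette genes of the list that also holds Abcb5 and Abcg2, 11 had reads and 10 were tested. The close relatives Abcb1a and Abcb1b, which encode the multidrug exporters of the same subfamily as Abcb5, were low. Abcb1a had 325.6 normalized reads in BALB/cN replicate 4, 198 in replicate 1 and 0 to 36.7 in the other 6 corneas, so its high values were in the corneas rich in pigment and lens transcripts. Abcb1b had 3.76 to 28.1 normalized reads.

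Abcg2 (ENSMUSG00000029802; chr6:58584523-58695676, plus strand) showed the clearest strain difference among the markers. Its normalized reads were 574.3, 457.9, 473.4 and 497 in BALB/cN replicates 1 to 4 and 598.1, 611.5, 766 and 714.4 in C57BL/6N replicates 1 to 4. The highest BALB/cN cornea was still below the lowest C57BL/6N cornea, though the gap was small. Over all genes tested, 4656 (18.3%) had no overlap of the strains, 2433 of them (9.58%) with BALB/cN below. The means were 501 ± 51.6 (SD, n = 4) and 673 ± 81.2 (SD, n = 4), or 1.34-fold higher in C57BL/6N. The rlog difference was -0.29 (standard error SE 0.0809, 95% interval -0.48 to -0.11), with an adjusted p of 0.0463 from limma, and an exact two-sided permutation test gave p = 0.0286, the lowest value possible with 4 corneas a group. Abcg2 thus missed the threshold of 0.01 and was among the 2842 genes (11.2%) past an adjusted p of 0.05. Its difference had the same sign under every alternative tried, from -0.41 to -0.16. The highest of these, -0.16 with an adjusted p of 0.278 from limma, came from the 5 stroma-rich corneas alone. The stroma-poor C57BL/6N replicates 3 and 4 had the highest Abcg2 reads, whereas the stroma-poor BALB/cN replicate 2 had the lowest. In limma the slope of Abcg2 on the stromal list within strains was -0.04 (SE 0.0336) with an adjusted p of 0.53.

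In the rest of the transporter list, Abcc3, an exporter of organic anions and conjugates, was called higher in BALB/cN. It was the 1 called gene of the 10 tested, against 5.74% of all genes tested. Abcc3 had 73.4 to 95.1 normalized reads in BALB/cN and 8.85 to 29 in C57BL/6N, 3.92-fold more on average, with an rlog difference of 0.70 and an adjusted p of 0.00142 from limma. The strains did not overlap for this gene. The median difference of the 10 tested genes was -0.03.

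Gpha2 (ENSMUSG00000024784; chr19:6226380-6227768, plus strand) varied more between corneas of a strain than between strains. The recovered reads were 158, 67, 131 and 164 in BALB/cN replicates 1 to 4 and 541, 347, 52 and 45 in C57BL/6N replicates 1 to 4. Normalized for library size they were 135.4, 58.6, 123.3 and 158.9 in BALB/cN and 551.2, 346.7, 65.7 and 47.6 in C57BL/6N. The C57BL/6N corneas thus fell into a pair above every BALB/cN cornea and a pair near the lowest BALB/cN cornea. The means were 119 ± 43 (SD, n = 4) and 253 ± 241 (SD, n = 4), and the rlog difference was -0.36 (SE 0.431, 95% interval -1.33 to 0.61, limma adjusted p = 0.659). The exact two-sided permutation test gave p = 0.486. Without C57BL/6N replicate 1 the difference was 0.00. The SD of Gpha2 over the 8 corneas was 0.73 on the rlog scale, and 94.5% of the 1841 genes with a mean rlog value within 0.5 of it had a smaller SD.

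The low Gpha2 values were those of the stroma-poor corneas, BALB/cN replicate 2 and C57BL/6N replicates 3 and 4. In a limma fit with strain and the stromal list mean, the slope of Gpha2 was 0.57 (SE 0.0633) rlog units per unit of the list mean, with an adjusted p of 0.000159. The list mean falls into separate high and low groups of corneas, so this slope is mostly a contrast between them. A positive slope passed an adjusted p of 0.01 in 1327 of all genes tested (5.22%), and a slope of either sign in 1715 (6.75%). In the same fit Gpha2 was lower in BALB/cN, with a difference of -0.70 (SE 0.144, 95% interval -1.02 to -0.38) with an adjusted p of 0.00708 from limma, and was called. With this covariate 2423 genes (9.54%) were called, 1205 of them (4.74%) lower in BALB/cN. The call was kept without the stromal gene Ptgds in the covariate, where the adjusted p was 0.00346.

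This call of Gpha2 depended on single corneas. With the covariate kept and each cornea left out in turn, the difference lay between -0.87 and -0.50. The adjusted p from limma was 0.00425 without BALB/cN replicate 2 and 0.00811 without C57BL/6N replicate 4. Without any other cornea it was between 0.0171 and 0.0327, the highest being that without C57BL/6N replicate 1. In the 5 stroma-rich corneas alone, Gpha2 reads of 123.3 to 158.9 in BALB/cN stood against 346.7 and 551.2 in C57BL/6N, an rlog difference of -1.06 (SE 0.151) with an adjusted p of 0.0103 from limma, which missed the threshold of 0.01. In the 3 stroma-poor corneas the BALB/cN value of 58.6 lay between the C57BL/6N values of 47.6 and 65.7. Whether the strain difference itself changes with the stromal share was not tested.

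The other genes of the thyrostimulin system were at or near 0. Gphb5, the beta subunit that forms thyrostimulin with Gpha2, had 2 reads in BALB/cN replicate 4 and 0 in the other corneas. Tshr, the thyrotropin receptor, had 7 reads in BALB/cN replicate 1, 1 in C57BL/6N replicate 2 and 0 elsewhere. Cga and Tshb, which encode the subunits of thyrotropin, had 0 reads in all corneas. Gpha2 was therefore the single gene of this list of 5 that passed the filter on the mean. Over the 8 corneas, the protein-coding genes whose rlog values were most like those of Gpha2 were Prrt4 (Pearson r = 0.983), Ephb1 (0.981) and Gap43 (0.979), where r describes 8 points that share strain and tissue composition.

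The bases upstream of Gpha2 and of Lrig1 are shown because these markers were the most and the least variable across the corneas, a pair picked after their values were seen. Both runs come from the RefSeq promoter table of GRCm38.p6, are written 5′ to 3′ on the strand of the gene, and stop at the first annotated exon base. Capitals mark GGGCGG (the GC box, searched on both strands) and CCAAT (both strands). Of 32817 promoter windows of 250 bases, 32.7% held GGGCGG, 33.8% CCAAT and 12.4% the TATA box core TATAAA, and no matches overlap in the runs shown.
Gpha2 (chr19:6226151-6226379): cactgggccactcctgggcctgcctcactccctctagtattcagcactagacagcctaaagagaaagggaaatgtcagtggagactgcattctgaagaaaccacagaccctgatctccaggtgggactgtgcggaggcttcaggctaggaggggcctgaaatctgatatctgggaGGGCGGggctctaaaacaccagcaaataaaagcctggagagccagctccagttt
Lrig1 (chr6:94700159-94700395): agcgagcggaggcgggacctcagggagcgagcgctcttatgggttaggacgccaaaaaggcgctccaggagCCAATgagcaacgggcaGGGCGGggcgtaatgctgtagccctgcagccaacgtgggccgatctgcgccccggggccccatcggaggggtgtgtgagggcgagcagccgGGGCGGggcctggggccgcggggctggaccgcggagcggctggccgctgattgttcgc
The Gpha2 run of 229 bases held 1 GC box and 2 CG dinucleotides. The Lrig1 run of 237 bases held 2 GC boxes, 1 CCAAT and 25 CG dinucleotides. The median over all windows was 6 CG dinucleotides. These are matches of letters only, and no binding or methylation was measured here.

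**Figure D2:**
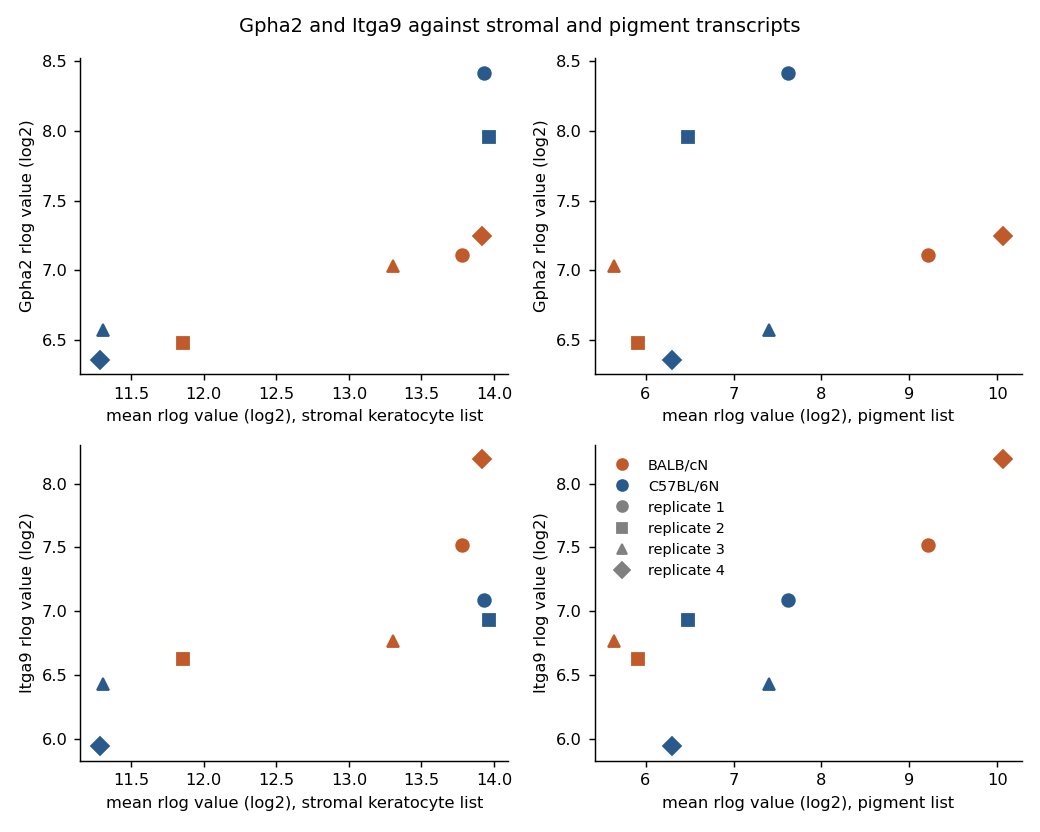
rlog values (log2) of Gpha2 (top) and Itga9 (bottom) against the mean rlog value of the stromal keratocyte list (left) and of the pigment list (right), 1 point per cornea. Gpha2 is lowest in the 3 stroma-poor corneas and, among the stroma-rich ones, higher in C57BL/6N, while Itga9 is highest in BALB/cN replicates 1 and 4, which have the highest pigment values.

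Trp63 (ENSMUSG00000022510; chr16:25683763-25892102, plus strand) was the most abundant of the markers. Its normalized reads were 25987, 30524, 21906 and 20239 in BALB/cN replicates 1 to 4 and 21695, 22473, 25985 and 27099 in C57BL/6N replicates 1 to 4. The strains overlapped over nearly the whole range, with the highest and the lowest value both in BALB/cN. The means were 24664 ± 4593 (SD, n = 4) and 24313 ± 2633 (SD, n = 4). The rlog difference was 0.01 (SE 0.099, limma adjusted p = 0.977), with a 95% interval of -0.22 to 0.23. A true difference of either sign within these bounds remains possible, and the bounds are not a limit of detection. The sign of the Trp63 difference changed when the corneas were centred on their medians. Counts per gene do not separate the isoforms of p63 with and without the N-terminal domain.

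The slope of Trp63 on the stromal list was -0.10 (SE 0.0278), with an adjusted p of 0.0353 from limma, and its highest values in each strain were those of the stroma-poor corneas. The other members of its family were far lower. Trp53 had 1674 to 2912 normalized reads and Trp73 had 39.2 to 83 reads. Neither was called (rlog differences 0.19 and 0.10, adjusted p 0.35 and 0.59 from limma). None of the 14 genes of the p53 family and of known p63 targets was called by limma or voom. In limma 2 had p under 0.05 before adjustment, against 23.7% of all genes tested. An adjusted p of 0.05 was passed by 1 (Itgb4, the hemidesmosome integrin beta4 chain, difference 0.22), against 11.2% of all genes tested. The 14 differences had a median of 0.00 and lay between -0.25 and 0.22.

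Lrig1 (ENSMUSG00000030029; chr6:94604529-94700158, minus strand) was the steadiest marker. Its normalized reads were 10320, 10747, 10636 and 11166 in BALB/cN replicates 1 to 4 and 11492, 11254, 11690 and 12661 in C57BL/6N replicates 1 to 4. The strains did not overlap, as for 18.3% of all genes tested and with BALB/cN below as for 9.58%, but the gap between 11166 and 11254 reads was small. The means were 10717 ± 350 (SD, n = 4) and 11774 ± 617 (SD, n = 4), or 1.1-fold higher in C57BL/6N. The rlog difference was -0.10 (SE 0.0446, 95% interval -0.20 to -0.00, limma adjusted p = 0.202), while the exact two-sided permutation test gave p = 0.0286. Relative to the differentiated epithelium the difference was 0.01, so its sign depended on the scaling. Of genes with a similar mean, 12.4% had a smaller SD over the 8 corneas.

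The relatives and targets of Lrig1 were not called either. Lrig2 and Lrig3 had 867.3 to 1161 and 2250 to 3142 normalized reads, with differences of 0.08 and 0.04. Egfr, the receptor that Lrig1 restrains, had 13741 to 20204 normalized reads with a difference of -0.21 and an adjusted p of 0.0969 from limma. Its 2 highest values were those of C57BL/6N replicates 3 and 4, and its slope on the stromal list was -0.08 with an adjusted p of 0.00239. Of the 7 genes of this list, 0 passed an adjusted p of 0.05 in limma, against 11.2% of all genes tested. Before adjustment 3 had p under 0.05 in limma, against 23.7% of all genes tested, and voom called 0.

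Bmi1 (ENSMUSG00000026739; chr2:18677018-18686629, plus strand) was even across the corneas except in C57BL/6N replicate 4. Its normalized reads were 785.1, 766.4, 771.7 and 800.3 in BALB/cN replicates 1 to 4 and 790.6, 768.4, 824.2 and 632.9 in C57BL/6N replicates 1 to 4. BALB/cN lay wholly within the range of C57BL/6N. The rlog difference was 0.04 (SE 0.0685, 95% interval -0.11 to 0.19, limma adjusted p = 0.77) and turned negative under median centring, quantile normalization and without C57BL/6N replicate 4. The processed pseudogene Gm5946 matches 2658 bases of Bmi1 at 97% identity, but had only 1 to 10 reads per cornea.

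Among the 17 genes of Polycomb repressive complex 1 and its target Cdkn2a, 1 was called, against 5.74% of all genes tested. Phc2, a polyhomeotic subunit, had 3153 to 3372 normalized reads in BALB/cN and 4475 to 5036 in C57BL/6N, with no overlap. Its rlog difference was -0.43 (SE 0.0478, limma adjusted p = 0.000368). The catalytic partners of Bmi1, Ring1 and Rnf2, differed by -0.09 and 0.00, and Pcgf2, the subunit closest to Bmi1, by -0.04, none of them past the threshold. Cdkn2a, the best known gene under Bmi1 control, had only 5.09 to 22.8 normalized reads. The median difference of the list was 0.00.

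Cebpd (ENSMUSG00000071637; chr16:15887286-15891031, plus strand) owed its spread mostly to a single cornea. Its normalized reads were 618, 327.7, 272.9 and 294.5 in BALB/cN replicates 1 to 4 and 212.9, 288.8, 284.4 and 248.7 in C57BL/6N replicates 1 to 4. BALB/cN replicate 1 stood apart and the other 7 corneas overlapped. The means were 378 ± 161 (SD, n = 4) and 259 ± 35.4 (SD, n = 4). The rlog difference was 0.31 (SE 0.164, 95% interval -0.06 to 0.68, limma adjusted p = 0.291) and was 0.13 without BALB/cN replicate 1. The exact two-sided permutation test gave p = 0.114.

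BALB/cN replicate 1 was also the cornea with the most lens reads, 8427 against 218 to 3101 in the others, and with the highest values of Atf3 and Socs3, stress response genes of the list of limbal markers. Atf3 had 188.6 normalized reads there against 8.85 to 31.6 in the other corneas, and Socs3 had 153.4 against 28 to 80.4. Mt1 and Mt2 of the same list were not highest there, with 4578 and 6177 normalized reads against 5249 and 7195 in C57BL/6N replicate 1. Ddit3, described below, was not highest there either, with 131.1 against 156.4 in BALB/cN replicate 2. The part of lens tissue or of these genes in the Cebpd value was not tested. Among the genes most like Cebpd over 8 corneas were Nsun4 (Pearson r = 0.986) and Cblb (0.952). Cebpd also shares 562 of its 3746 exonic bases with Spidr on the opposite strand, a gene with 160 to 282 reads, and the strand setting of the counting is not given in the sources used here. None of the 6 genes of the C/EBP family was called by limma or voom. In limma 2 had p under 0.05 before adjustment, against 23.7% of all genes tested. Ddit3, a stress-induced member of the family, was the 1 gene past an adjusted p of 0.05 (difference -0.38, limma adjusted p = 0.0284), with 108.2 to 156.4 normalized reads in BALB/cN and 187.8 to 249.8 in C57BL/6N and no overlap. Cebpa and Cebpb had differences of 0.09 and 0.25 and adjusted p of 0.568 and 0.127 from limma.

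Itga9 (ENSMUSG00000039115; chr9:118606690-118901003, plus strand) had the lowest level per exonic kilobase of the markers with reads and was one of the most variable. The recovered reads were 280, 93, 105 and 500 in BALB/cN replicates 1 to 4 and 145, 122, 48 and 23 in C57BL/6N replicates 1 to 4. Normalized, they were 240, 81.3, 98.8 and 484.4 in BALB/cN and 147.7, 121.9, 60.7 and 24.3 in C57BL/6N. BALB/cN replicates 1 and 4 were above all other corneas, and BALB/cN replicates 2 and 3 lay within the range of C57BL/6N. The means were 226 ± 186 (SD, n = 4) and 88.7 ± 56.3 (SD, n = 4), or 2.55-fold more in BALB/cN. Its strain difference on the rlog scale was 0.68 (SE 0.362, 95% interval -0.14 to 1.49, limma adjusted p = 0.301), and the exact two-sided permutation test gave p = 0.2.

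The Itga9 difference was smaller without the corneas rich in pigment and lens transcripts, BALB/cN replicates 1 and 4. These corneas also had the most Itga9 reads, so leaving them out had to lower the difference whatever tissue they held. Without BALB/cN replicates 1 and 4 the difference was 0.10 (SE 0.315, limma adjusted p = 0.928), and without replicate 4 alone 0.37. The pigment list summed to 19399 and 43752 normalized reads in these corneas and to 209.9 to 3806 in the other 6, with the 7 genes detected in both. On the pigment list the slope of Itga9 was 0.32 (SE 0.0745) with an adjusted p of 0.105 from limma, where 180 of all genes tested (0.709%) passed 0.01. On the stromal list it was 0.39 (SE 0.0993) with an adjusted p of 0.025. The low C57BL/6N values were those of the stroma-poor replicates 3 and 4. The lists were not tested apart from each other. Both were high in BALB/cN replicates 1 and 4, but BALB/cN replicate 3 had a stromal mean of 13.31 and a pigment mean of 5.64. Its Itga9 reads were 98.8, against 81.3 in the stroma-poor BALB/cN replicate 2. C57BL/6N replicates 1 and 3 had pigment means of 7.62 and 7.40 and stromal means of 13.93 and 11.31. Their Itga9 reads were 147.7 and 60.7. These corneas were picked after their values were seen, and the part of either tissue in the Itga9 values was not tested. The genes most like Itga9 over 8 corneas were Myo5a (Pearson r = 0.988), Ptp4a3 (0.984) and Arfgef3 (0.983).

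Of the 9 genes of the list that holds the integrin, its partners and its ligands, 6 had a positive slope on the stromal list with an adjusted p of at most 0.01 in limma, against 5.22% of all genes tested. Itga4, the alpha chain closest to Itga9, had 31.6 and 33.9 normalized reads in C57BL/6N replicates 3 and 4 and 128.5 in BALB/cN replicate 2, against 442.6 to 665.1 in the stroma-rich corneas. Its slope on the stromal list was 0.77 with an adjusted p of 4.97e-06 from limma. Itgb1, the beta chain, had 3136 to 5475 normalized reads with a slope of 0.15 (limma adjusted p = 0.00273). Tnc, tenascin C, had 1.06 to 18.4 reads except in BALB/cN replicates 1 and 4, with 59.1 and 100.8. None of the 9 genes was called by limma or voom. In limma 2 had p under 0.05 before adjustment, against 23.7% of all genes tested. The median difference of the 9 was 0.52, against 0.01 over all genes tested and 0.58 over the 10 stromal keratocyte genes. The stroma-poor corneas were BALB/cN replicate 2 and C57BL/6N replicates 3 and 4, and their part in this median was not tested. Fn1, fibronectin, had a difference of -0.47 (limma adjusted p = 0.0365).

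**Figure D3:**
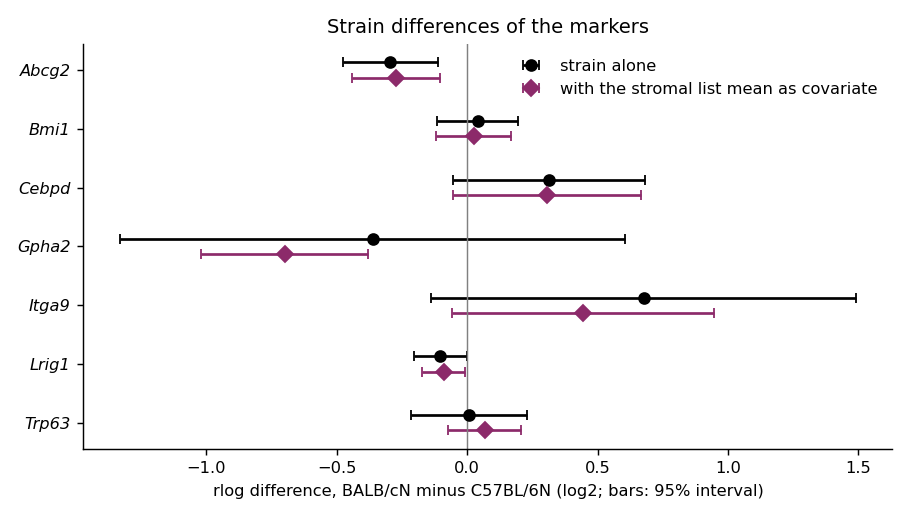
Strain differences on the rlog scale (BALB/cN minus C57BL/6N, log2) with 95% intervals of the 7 markers with reads, from limma with strain alone (circles) and with the stromal list mean as covariate (diamonds). Only the diamond of Gpha2, at -0.70, reached an adjusted p of 0.01.

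Levels were compared between markers per kilobase of annotated exon, using the mean rlog value minus the log2 of the exonic length. Trp63 was highest at 11.50 ± 0.15 (SD over 8 corneas) and Lrig1 next at 10.97 ± 0.07, and Trp63 was above Lrig1 in 8 of 8 corneas. Bmi1 at 7.59 ± 0.08 and Gpha2 at 7.52 ± 0.73 did not differ beyond their spread, since Bmi1 was above Gpha2 in 6 of 8 corneas and their order of mean reads per kilobase was the reverse, 193 against 241. Cebpd at 6.35 ± 0.30 and Abcg2 at 6.15 ± 0.19 did not differ beyond their spread either, with Cebpd higher in 5 of 8 corneas. Gpha2 was above Cebpd in 8 of 8 corneas on this scale, but in 6 of 8 by reads per kilobase. Itga9 was last at 3.99 ± 0.69, and below Abcg2 in 8 of 8 corneas on the rlog scale and in 7 of 8 by reads per kilobase. In normalized reads per kilobase the means ran from 2918 for Trp63 to 20.5 for Itga9, and exonic lengths are those of all annotated isoforms together.

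**Figure D4:**
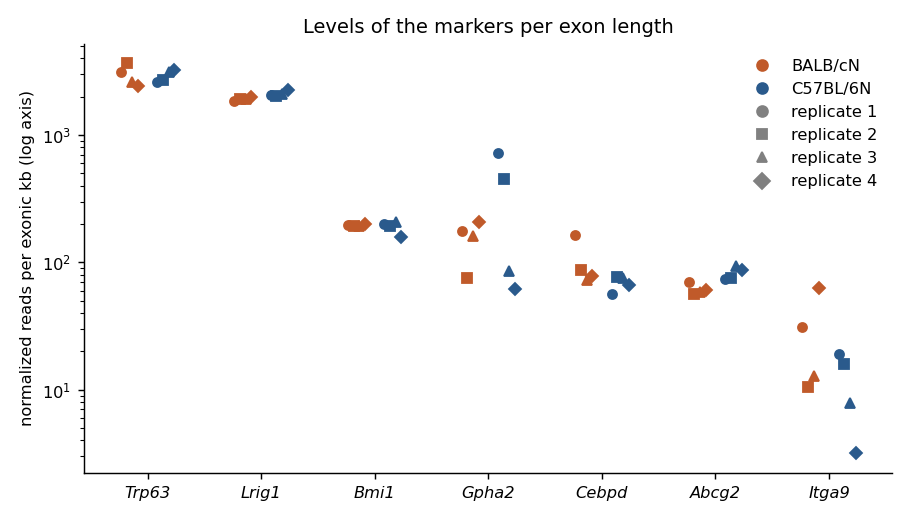
Normalized reads per exonic kilobase (log axis) of the 7 markers with reads, 1 point per cornea, ordered by their mean per-length rlog value. Trp63 and Lrig1 stand above the rest, the corneas of Bmi1, Gpha2, Cebpd and Abcg2 overlap in part, and Itga9 spans 3.17 to 63 reads per kilobase.

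Other genes used as markers of limbal or basal epithelium gave no common direction. Of 16, 1 was called higher and 2 lower in BALB/cN, against 2.83% and 2.91% of all genes tested. The median difference of the 16 was 0.05. Krt15, a keratin of basal limbal cells, had a difference of -4.10 on the rlog scale, with 31.5 to 170.5 normalized reads against 2210 to 5040. Itga6, the laminin-binding alpha6 chain, had a difference of -0.47 (SE 0.0697, limma adjusted p = 0.00215), with 9311 to 11701 reads against 14246 to 17383. A transcript of Gm29397 matches 326 bases of Itga6 and had 186 to 347 reads. Sox9, a transcription factor of limbal and other epithelial progenitors, was higher by 0.69 (SE 0.0543, limma adjusted p = 3.64e-05), with 3935 to 4653 reads against 2193 to 2367. The strains did not overlap for any of these, as for 18.3% of all genes tested.

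Ifitm3 and Cd63, markers that single-cell studies of the limbus list beside Gpha2, followed the stromal list as well. Ifitm3 had 3058 to 6438 normalized reads in BALB/cN and 127 to 1619 in C57BL/6N, with no overlap, but its difference of 2.32 had an adjusted p of 0.0241 from limma. Its slope on the stromal list was 0.73 (SE 0.0727, limma adjusted p = 6.8e-05). Ifitm3 was higher in BALB/cN among the stroma-rich corneas, with 3986 to 6438 reads against 1555 and 1619. It was also higher among the stroma-poor ones, with 3058 in BALB/cN replicate 2 against 149 and 127 in C57BL/6N replicates 3 and 4. Cd63 had 40.2 normalized reads in BALB/cN replicate 2 and 101.1 and 33.9 in C57BL/6N replicates 3 and 4, against 176.9 to 387.2 in the stroma-rich corneas. Its slope was 0.64 (SE 0.067, limma adjusted p = 9.98e-05) and its strain difference 0.03. Gpha2, Ifitm3 and Cd63 thus had their lowest values of each strain in the stroma-poor corneas, while Trp63 had its highest there. Of the 16 genes of the list, 5 had a positive slope past an adjusted p of 0.01 in limma, against 5.22% of all genes tested.

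**Figure D5:**
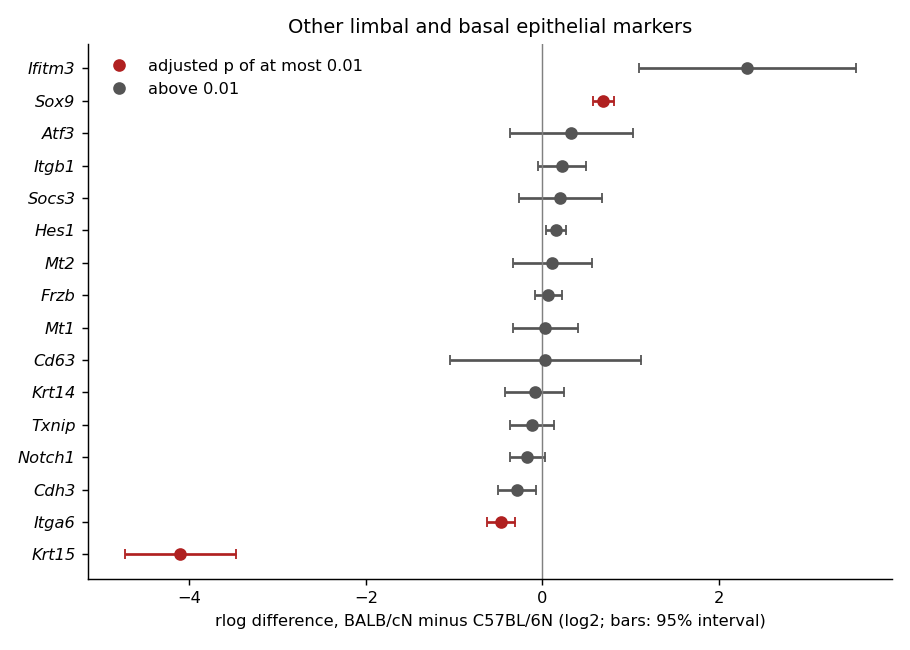
Strain differences on the rlog scale (BALB/cN minus C57BL/6N, log2) with 95% intervals of 16 other limbal and basal epithelial markers, from limma. Krt15 and Itga6 were called lower and Sox9 higher in BALB/cN, and the interval of Ifitm3 lies above 0 although it was not called.

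Of the lists for other tissue, the conjunctival list had the most calls. In it 5 of 8 genes were called lower in BALB/cN, against 2.91% of all genes tested. These were Krt13, Krt4, Krt19, Krt7 and Muc4, with differences of -2.51, -1.17, -0.97, -0.90 and -0.48. The Muc4 call was kept under 16 of 32 alternatives and that of Krt7 under 22 of 32. Muc5ac, the mucin of goblet cells, and Krt8 had higher values in BALB/cN without overlap, but neither was called. Muc5ac had 29.1 to 522.3 normalized reads against 0 to 4.08 (difference 2.19, limma adjusted p = 0.0225), and Krt8 had 21.3 to 42.3 against 3.0 to 11.6 (difference 0.40, limma adjusted p = 0.0111). The corneal endothelium list had 1 called gene, Atp1b3, a sodium pump subunit, with a difference of -0.56. No gene of the differentiated epithelium, stromal keratocyte, vessel endothelium, pigment cell, lens, macrophage or muscle lists was called by limma. The stromal keratocyte, pigment and lens lists nonetheless had median differences of 0.58, 0.75 and 1.02. How far these tissues contribute to the strain values of Abcg2, Gpha2 or Itga9 was not tested.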

How the data were processed

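Total RNA was measured in 4 BALB/cN and 4 C57BL/6N corneas. The authors prepared strand-specific libraries, aligned the reads with TopHat2 2.1.1 to strain-specific versions of GRCm38, and counted them on the union of exons of Ensembl genes with HTSeq 0.7.1. The values the authors deposited are log2 values, the regularized log (rlog) of DESeq2 1.30, normalized for library size. No column of the table was left unused (0), and no counts were analysed as deposited.

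Groups came from the labels. The strain comparison used limma 3.58.1 in R 4.3.3 (lmFit and eBayes, variance trend) on all genes whose rlog values averaged 0 or more, adjusted by Benjamini-Hochberg. For the markers an exact permutation test, two-sided, was added in scipy 1.17.1. Slopes came from limma with strain and a list mean as terms. The 7 tested markers and all gene lists were chosen with earlier results of these data known. Named genes are the 8 markers, called genes of the lists, close relatives or partners of each marker, and the 3 protein-coding genes (mean rlog of at least 5) most correlated with each marker whose SD over 8 corneas was at least 0.3. For Cebpd, 1 of these genes is not reported here. Fn1, Itgb4, Atf3, Socs3, Mt1, Mt2, Ifitm3, Cd63, Ddit3, Muc5ac, Krt8 and Cdkn2a were picked from the lists after their values were seen.

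Read numbers came from an inversion of the rlog transformation, whose constants were fitted on every other gene of the deposited table so that results were whole numbers. On genes left out of that fit, 93.8% of values lay within 0.1 of a whole number at normalized means of 100 to 1000 reads, 66.3% at 1000 to 5000 and 24.3% above, against about 20% after a random fraction was added. Both procedures were tested on simulated data. Replicates differed by more than sampling noise, with a chi-square per gene of 5.82 to 27.8 in every pair of corneas of a strain. The 95% intervals are those of limma and rest on the spread between corneas. The limit for a count of 0 covers counting error only, because PCR copies of a molecule are counted as separate reads.

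Positions, exonic lengths and overlaps came from an Ensembl-based GRCm38 annotation newer than the one the authors used, which matched 31278 of the 31314 genes with reads. Copies were searched with BLAST+ 2.17.0 (at least 95% identity over 200 bases). Promoters of Trp63 and Cebpd were not analysed here.

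The alternatives were a robust fit, a fit without the variance trend, no filter, a mean of at least log2(10), median centring, quantile normalization, values relative to the differentiated epithelium list, the stromal list mean as covariate, an empirical null, an adjusted p of 0.05, the replicate number as a block, limma voom on recovered reads, and leaving out each cornea. Added after seeing the data were the pigment list mean as covariate, the stromal covariate without Ptgds or without each cornea, the stroma-rich corneas alone (list mean of at least 13), and leaving out the pigment-rich corneas (list mean of at least 9).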

Additional observations from a re-analysis of the deposited data

How the results depend on the processing

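No marker was called with strain alone, and this held under every alternative except the stromal covariate (1 marker called, Gpha2, also without Ptgds and without BALB/cN replicate 2 or C57BL/6N replicate 4) and an adjusted p of 0.05 (1, Abcg2). Of 224 marker values under the alternatives, 208 kept their sign and their side of the threshold, 5 passed it and 11 changed sign. Trp63 was -0.067 and Bmi1 -0.034 under median centring, Bmi1 was -0.012 under quantile normalization and -0.016 with the stromal covariate and without C57BL/6N replicate 4, and Lrig1 was 0.0081 relative to the epithelium. Leaving out 1 cornea at a time, Gpha2 lay between -0.68 and 0.0026, Trp63 between -0.076 and 0.075, and Bmi1 between -0.017 and 0.072. The causes were not tested.

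Over all genes, against 1458 called, 958 were called under median centring, 2423 with the stromal covariate (2365 without Ptgds), 2842 at an adjusted p of 0.05, 852 in the stroma-rich corneas alone, 447 without the pigment-rich corneas, and between 953 and 1163 when 1 cornea was left out (the lowest without C57BL/6N replicate 4). With the stromal covariate and 1 cornea left out, 1444 to 2122 were called. With an empirical null limma called 0 genes, with 1725 under an unadjusted p of 0.05, and voom called 1424. With the replicate number as a block 554 genes were called and no marker. Nothing in the labels says that the numbers pair the corneas. The deviations of same-numbered corneas from their strain means correlated at 0.305, -0.53, -0.203 and -0.454. These deviations also hold the unlike stromal and pigment content of the corneas, so they cannot show whether same-numbered corneas were handled together. Of 352 values of the 11 called genes of the lists, 307 stayed called, 45 did not, and none changed sign. Of 544 counts of calls in lists, 457 stayed within 1.5 times. With 4 corneas a strain, differences within the intervals given remain possible, and the intervals are not limits of detection. Abcg2 was not called although its interval of -0.48 to -0.11 did not include 0. The low read numbers of Itga9 and Gpha2 limit the results of both.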
